A study of Mus musculus with 4 samples.

Results

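Insulin-like growth factor (IGF) binding proteins were examined in kidneys of pristane-injected mice, together with the ligand IGF1 and its receptor. The set consisted of 9 genes, Igfbp1 to Igfbp7, Igf1 and Igf1r, out of 54532 genes with counts. They were taken by gene name, and the family was picked because Igfbp2 had shown higher counts in ZBP1-KO than in WT kidneys. The difference of Igfbp2 between genotypes is therefore a description of how the family was chosen, and no test of it is given as evidence. All 9 genes passed the low-count filter and were among the 14908 genes tested.

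The series held 4 libraries of whole kidney, 2 from WT and 2 from ZBP1-KO mice. The mice had been given 500 µL pristane intraperitoneally when 8 weeks old, a hydrocarbon oil that induces lupus-like disease, and kidneys were taken 8 months later, so the groups shared age and treatment and differed in genotype. They were female and on the C57BL/6J background. The knockout was a CRISPR-Cas9 deletion of a run of Zbp1 exons made in a commercially produced line, whereas WT mice were bought separately and were not described as littermates, so that genotype and origin of the animals cannot be told apart. Animals without pristane were not analysed here.

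IGF1 is a hormone-like growth factor made mainly by the liver under the control of growth hormone, and locally by many tissues. It acts through the receptor tyrosine kinase IGF1R. In blood and tissue most IGF1 is held by binding proteins, which prolong its life, carry it to target cells or keep it from the receptor, and which are in turn cleaved by proteases such as pregnancy-associated plasma protein A. Igfbp7 binds IGF1 only weakly and is a secreted protein of vessels and matrix. In the kidney the binding proteins are made by different cells, including endothelium, stroma and tubules.

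Total counts ranged from 9878776 to 12921925 per library, of which 49.5% to 61.5% fell on mitochondrially encoded genes. Levels are given as CPM, the counts of a gene relative to the TMM-scaled total of its library. Zbp1, the deleted gene, had 94 and 125 counts in the WT libraries against 18 and 0 in the knockout libraries. The knockout libraries resembled each other less (Pearson r of 0.900 over log2 CPM of all tested genes) than those of WT (0.938). They also resembled each other less than any knockout library resembled a WT library (0.918 to 0.921). The genes do not count as replicates. Defining markers of proximal tubule, thick ascending limb and collecting duct were abundant in every library, with at least 529 CPM of Slc34a1, 205 CPM of Umod and 530 CPM of Aqp2.

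The genes lie at 7 places in the genome (GRCm38, GENCODE M21). Igfbp2 (chr1:72824503-72852474, plus strand) and Igfbp5 (chr1:72857932-72874884, minus strand) are neighbours, with their 3′ ends facing each other across 5457 bases. Igfbp1 (chr11:7197782-7202546, plus strand) and Igfbp3 (chr11:7206086-7213923, minus strand) form a second pair of the same layout, 3539 bases apart. Igfbp4 (chr11:99041244-99054392) lies far from that pair on the same chromosome, and Igfbp6 (chr15:102144362-102149511), Igfbp7 (chr5:77349240-77408041), Igf1 (chr10:87858265-87937042) and Igf1r (chr7:67952827-68233668) are single. Of the 9 genes, only Igfbp7 shared exon bases with another annotated gene, 85 bases with Polr2b on the opposite strand, which had 298 to 380 counts per library against at least 6390 for Igfbp7.

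Promoter sequence was taken from RefSeq (GRCm38.p6), which had an entry for each of the 9 genes. The stretch from 250 to 21 bases before the RefSeq start is shown for Igfbp2, the gene that differed most between genotypes, for its neighbour Igfbp5, for Igfbp7, whose level followed that of Igfbp5, and for Igfbp1, a classic insulin-regulated gene. Capitals mark matches, on either strand, to GGGCGG (GC box), CAAAACA (the core of the insulin response element bound by FOXO factors), TATAAA or CCAAT, which did not overlap one another.
Igfbp2: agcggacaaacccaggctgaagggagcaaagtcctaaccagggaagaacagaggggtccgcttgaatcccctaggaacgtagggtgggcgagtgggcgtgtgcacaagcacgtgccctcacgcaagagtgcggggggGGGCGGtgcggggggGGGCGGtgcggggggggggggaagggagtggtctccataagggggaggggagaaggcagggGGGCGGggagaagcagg
Igfbp5: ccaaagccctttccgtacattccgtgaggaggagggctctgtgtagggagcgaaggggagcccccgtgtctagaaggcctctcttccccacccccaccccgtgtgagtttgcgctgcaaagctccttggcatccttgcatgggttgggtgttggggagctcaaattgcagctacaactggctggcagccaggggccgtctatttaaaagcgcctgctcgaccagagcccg
Igfbp7: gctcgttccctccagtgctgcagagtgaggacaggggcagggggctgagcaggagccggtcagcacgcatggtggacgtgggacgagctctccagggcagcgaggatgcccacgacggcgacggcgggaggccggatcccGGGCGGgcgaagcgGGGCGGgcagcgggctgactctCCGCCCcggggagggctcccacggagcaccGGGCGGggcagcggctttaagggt
Igfbp1: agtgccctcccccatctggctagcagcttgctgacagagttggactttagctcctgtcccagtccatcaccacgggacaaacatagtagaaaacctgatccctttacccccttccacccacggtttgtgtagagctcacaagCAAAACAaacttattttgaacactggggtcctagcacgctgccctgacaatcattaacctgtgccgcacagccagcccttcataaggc
These stretches are chr1:72824230-72824459 (plus strand) for Igfbp2, chr1:72874886-72875115 (minus strand) for Igfbp5, chr5:77408066-77408295 (minus strand) for Igfbp7 and chr11:7197537-7197766 (plus strand) for Igfbp1. The Igfbp2 stretch held 3 GC boxes and 68.3% G or C, and the Igfbp7 stretch held 4 GC boxes and 73.9% G or C. The Igfbp5 stretch held none of these letters, and that of Igfbp1 held 1 CAAAACA match, which starts 108 bases before the RefSeq start. Among all 32851 promoter entries, 29.8% held GGGCGG in the same window, 5.30% CAAAACA, 11.8% TATAAA and 32.2% CCAAT. Of the members not shown, Igf1r held 2 GC boxes, Igfbp4 a TATAAA match 28 bases before the start, Igfbp6 a TATAAA match and 2 CCAAT matches, Igf1 1 CCAAT match and Igfbp3 none of the 4 motifs. A match describes these letters and is not a measured binding site.

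Igfbp2 encodes a binding protein of fetal and metabolic tissues with a preference for IGF2. It had 35.7 and 32.2 CPM in the WT libraries and 99.6 and 55.5 CPM in the ZBP1-KO libraries. Both ZBP1-KO values lay above both WT values, and the 2 ZBP1-KO libraries differed from each other by 1.80-fold, whereas the WT libraries were close together. Mean levels were 33.9 ± 2.51 CPM for WT and 77.5 ± 31.2 CPM for ZBP1-KO (SD, n = 2 per genotype). The fitted log2 fold change was 1.20 ± 0.26 (SE), a 2.29-fold higher level in ZBP1-KO. It ran from 0.70 without ZBP1-KO 1 to 1.55 without ZBP1-KO 2. Among all tested genes, 3.17% had ZBP1-KO values above both WT values together with a log2 fold change of at least 1. In whole kidney, more cells that make Igfbp2 and more Igfbp2 RNA per cell cannot be told apart. ZBP1-KO 1, where Igfbp2 was highest, also had the smallest share of mitochondrial counts, 49.5%. Leaving out the mitochondrially encoded genes gave a log2 fold change of 1.19. TMM scaling already allows for such a shift (factor 1.186 for ZBP1-KO 1), so this refit could hardly move the value. The part of that share in the level of Igfbp2 was not tested.

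**Figure D1:**
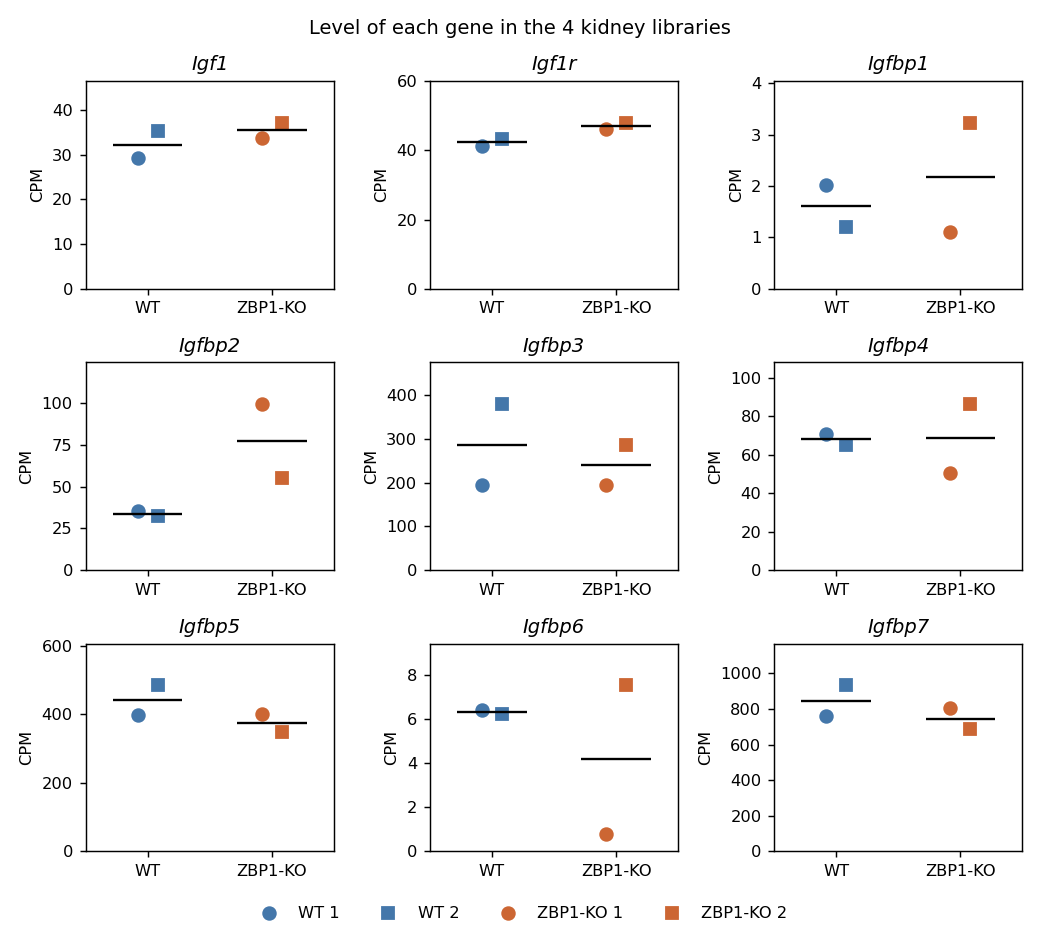
Each panel shows 1 gene, with the level in CPM on the y axis and genotype on the x axis. Points are libraries and lines are group means (n = 2 each). Igfbp2 is the panel in which both ZBP1-KO libraries lie well above both WT libraries, while the single low ZBP1-KO point of Igfbp6 is at 0.811 CPM.

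The values of Igfbp5, the neighbour of Igfbp2, overlapped between genotypes. Igfbp5, a binding protein that is held in the matrix and is made by glomerular and other endothelial cells, had 398 and 485 CPM in WT libraries against 401 and 349 CPM in ZBP1-KO. WT 2 was the highest and ZBP1-KO 2 the lowest, and the log2 fold change was −0.24 ± 0.19 (SE). The ratio of Igfbp2 to Igfbp5, both taken as CPM per kilobase of exon, was 0.291 and 0.216 in WT libraries against 0.808 and 0.517 in ZBP1-KO.

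Igfbp7, the weak IGF binder of vessels, had 761 and 934 CPM in WT libraries against 805 and 688 CPM in ZBP1-KO. The groups overlapped, with a log2 fold change of −0.18 ± 0.19 (SE). Across the 4 libraries Igfbp7 and Igfbp5 ran in parallel: after centring each on its mean, their log2 CPM profiles were 0.057 apart (Euclidean distance). That was the smallest distance among pairs of the 9 genes, and the next smallest was 0.16 between Igf1 and Igf1r. Genes outside the 9 came nearer still, such as Nacc2 to Igfbp7 (0.017) and Nadk to Igfbp5 (0.042).

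Igfbp3 is the main carrier of IGF1 in blood. It had 194 and 380 CPM in WT libraries against 194 and 286 CPM in ZBP1-KO. The groups overlapped and the first library of each genotype was lower than the second, although the numbers are not known to pair libraries. Its log2 fold change was −0.26 ± 0.29 (SE). It was 0.30 without WT 2 and −0.67 without WT 1, so its sign depended on the library left out.

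Igfbp1, which in liver is switched off by insulin and induced by fasting and hypoxia, was low. It had 25 and 14 counts in WT libraries against 15 and 30 counts in ZBP1-KO, which is 2.01 and 1.20 CPM against 1.11 and 3.23 CPM. The groups overlapped, and the log2 fold change of 0.42 had an SE of 0.98. With an error of this size, only a large difference of Igfbp1 could have been seen.

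Igfbp4, an inhibitory binding protein that is cleaved by pregnancy-associated plasma protein A, had 70.9 and 65.0 CPM in WT libraries against 50.7 and 86.4 CPM in ZBP1-KO. The WT values lay between those of the ZBP1-KO libraries. The log2 fold change was 0.01 ± 0.24 (SE), and it changed sign between alternatives.

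Igfbp6, which prefers IGF2, had 6.43 and 6.24 CPM in WT libraries against 0.811 and 7.54 CPM in ZBP1-KO. The counts behind these values were 80, 73, 11 and 70. A single library, ZBP1-KO 1, was thus low, 9.30-fold below the other ZBP1-KO library, and the other 3 were close together. A gap between the ZBP1-KO replicates at least as large on the log2 scale was seen in 2.17% of all tested genes. The log2 fold change of Igfbp6 was −0.63 ± 0.76 (SE) in edgeR with all libraries, −1.21 with a replicate block and −1.67 in limma-voom, which weights libraries by quality. It was 0.24 without ZBP1-KO 1 and −2.96 without ZBP1-KO 2.

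The ligand and the receptor varied least. Igf1 had 29.2 and 35.2 CPM in WT libraries against 33.7 and 37.2 CPM in ZBP1-KO, and the groups overlapped. Its log2 fold change was 0.14 ± 0.22 (SE). Igf1r had 41.4 and 43.2 CPM in WT libraries against 46.2 and 48.0 CPM in ZBP1-KO, so that both ZBP1-KO values were above both WT values by a small margin. Its log2 fold change was 0.15 ± 0.19 (SE), smaller than its standard error.

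The edgeR quasi-likelihood test over all tested genes called 0 of the 9 genes at an adjusted p under 0.05, and 0.0134% of all tested genes were called. It left Zbp1, the deleted gene, uncalled as well (edgeR adjusted p = 0.999), so a gene not called is not shown to be unchanged. At an unadjusted p under 0.05 the test picked 1 of the 9, Igfbp2, against 3.88% of tested genes. DESeq2 called 1 of the 9, again Igfbp2, and 0.0604% of all genes, and limma-voom called 0 of the 9 and 0.0537% of all genes. Both ZBP1-KO values lay above both WT values for 2 of the 9 genes (16.0% of all tested genes) and below them for 0 of the 9 (16.3%). The median log2 fold change of the 9 genes was 0.01, beside −0.01 over all tested genes. Since the family was chosen with this contrast known, nothing is read from these values. With 2 libraries per group the smallest two-sided p of an exact permutation test is 0.333, and nothing in the labels says whether each library came from a separate animal, so p-values measure the spread between these samples.

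**Figure D2:**
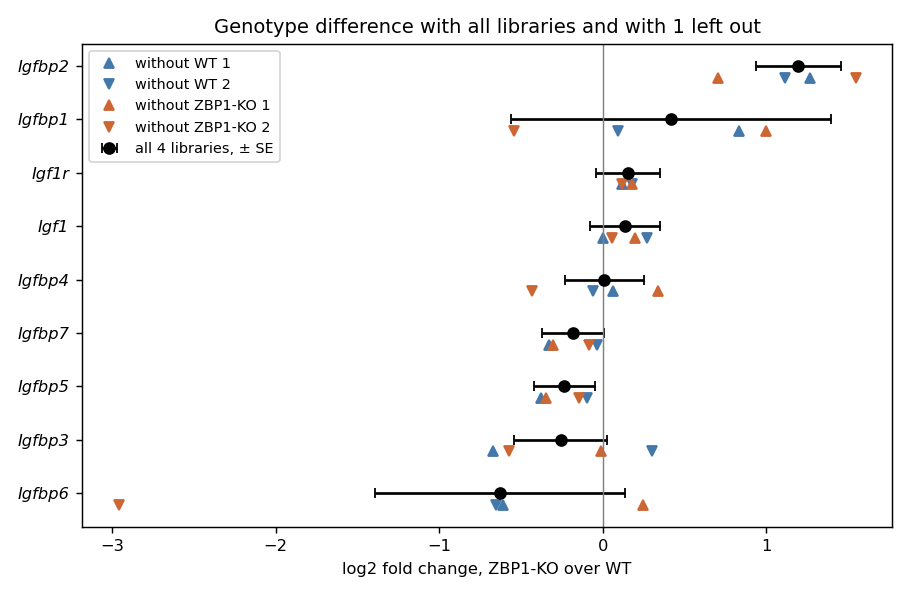
The log2 fold change of ZBP1-KO over WT is on the x axis and the genes are on the y axis. Black points with bars are the fit with all 4 libraries ± SE, and triangles are fits with 1 library left out. Igfbp2 lies between 0.70 and 1.55 in the fits with a library left out, and Igfbp6 spans −2.96 to 0.24.

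Levels were next compared between the genes per length of exon, as CPM per kilobase. Igfbp7 was highest by far, at 659 ± 85.4 (SD, n = 4), which was 7.83-fold above Igfbp3. Igfbp3 (84.2 ± 28.4) and Igfbp5 (68.0 ± 9.40) followed, and their ranges overlapped, with Igfbp3 higher in 2 of 4 libraries. Igfbp2 (30.2 ± 16.8) was higher than Igfbp4 (15.5 ± 3.35) in all 4 libraries, although the ranges over libraries overlapped. Igfbp6 (4.73 ± 2.71) and Igf1 (3.42 ± 0.34) overlapped as well, since Igfbp6 was the lower of the pair in ZBP1-KO 1. Igf1r (2.66 ± 0.18) and Igfbp1 (1.24 ± 0.65) were the lowest. The order of means was the same in the mean of WT and in the mean of ZBP1-KO. These SDs are over all 4 libraries and so include any difference between genotypes.

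**Figure D3:**
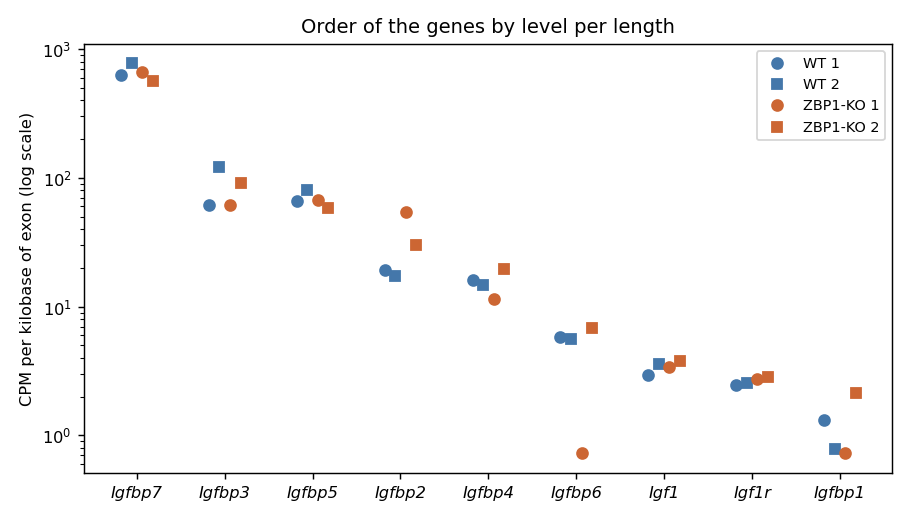
CPM per kilobase of exon is on the y axis (log scale), and the genes are ordered on the x axis by their mean over 4 libraries. Points are libraries. Igfbp7 sits between 569 and 773 in every library, above all other genes, and Igfbp2 reaches 53.9 in ZBP1-KO 1.

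The summed level of the 7 binding proteins was 800 and 1013 CPM per kilobase in WT and 861 and 777 in ZBP1-KO. Igfbp7 made up 73.2% to 78.7% of that sum. Igfbp2 made up 2.42% and 1.72% in WT libraries against 6.26% and 3.86% in ZBP1-KO, so that both ZBP1-KO shares were above both WT shares. The share of Igfbp5 was 8.29% and 7.97% in WT libraries against 7.75% and 7.47% in ZBP1-KO.

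Genes with the pattern most like each member were found by the Euclidean distance between centred log2 CPM profiles over the 4 libraries, among 8013 or 8014 other protein-coding genes with a mean of at least 10 CPM. With 4 libraries many genes come close to any profile, so these are descriptions. For Igfbp2 the nearest were Elovl2, a fatty acid elongase (distance 0.40), Malt1, a paracaspase of lymphocyte signalling (0.43), Tubb2b (0.45), Heatr5b (0.47) and Ago2 (0.48). Elovl2 had 14.9 and 9.66 CPM in WT libraries against 29.6 and 19.9 CPM in ZBP1-KO. For Igfbp6 the nearest was Slc5a2, the glucose transporter SGLT2 of the early proximal tubule (0.56), with 45.0 and 33.9 CPM in WT libraries against 8.48 and 43.9 CPM in ZBP1-KO. Slc5a2 was thus low in the same library as Igfbp6. The next for Igfbp6 were Gm47283 (0.80) and Plk3 (1.04), farther off. For Igfbp1 they included Ptcd3 (0.18) and Abcb1b (0.22). For Igfbp3 they were Prpf3, Krt80 and Arhgap10, for Igfbp4 Acaa1b, Dok3 and Fermt2, for Igfbp5 Nadk, Bri3 and Nbn, for Igfbp7 Nacc2, Plcb3 and Ankmy2, for Igf1 Fastkd1, Rac1 and Pth1r, and for Igf1r they included Ppp6r1 and Slc25a39, at distances from 0.012 to 0.15.

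Marker genes of other cells were counted beside Igfbp2. Of 14 fat markers 8 were tested, and the ZBP1-KO values lay above both WT values for 7 of the 8 (16.0% of all tested genes). This count depends in part on the low-count filter. Plin1 passed it through its ZBP1-KO counts alone (14 and 21, against 3 and 0 in WT). Retn also needed its ZBP1-KO counts (147 and 122) to pass, since WT 1 had 3 counts against 51 in WT 2. For the 6 markers below the filter the groups overlapped. The edgeR test called 1 of the 8 tested markers, beside 0.0134% of all tested genes. The called marker was Cfd, the adipocyte protease adipsin (log2 fold change 2.20 ± 0.23, SE, edgeR adjusted p = 0.00889). Cfd had 14.4 and 19.8 CPM in WT libraries against 83.7 and 73.2 CPM in ZBP1-KO. The summed level of the 14 markers was 100.2 and 122 CPM in WT libraries against 254 and 216 CPM in ZBP1-KO, with Lep and Acvr1c at 0 in all libraries. Of the 8 tested fat markers, 5 were higher in ZBP1-KO 1 than in ZBP1-KO 2 and 3 were lower. The fat score (mean centred log2 CPM of tested markers) was −1.02 and −0.73 in WT and 0.86 and 0.89 in ZBP1-KO, where Igfbp2 stood at 0.99 and 0.14. The part of fat in the level of Igfbp2 was not tested.

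The T cell score separated the genotypes as well, at 0.85 and 0.38 for ZBP1-KO against −0.41 and −0.81 for WT. It covers only markers past the low-count filter, and Cd2 passed through its ZBP1-KO counts alone (39 and 17, against 6 and 2 in WT). Summed levels of all 10 listed markers, tested or not, were 29.4 and 21.7 CPM against 15.4 and 10.8 CPM. None of the 8 tested T cell markers was called by edgeR (0.0134% of all tested genes). At an unadjusted p under 0.05, 1 was higher (1.91% of all tested genes). ZBP1-KO values lay above both WT values for 3 of the 8 (16.0% of all tested genes). Macrophage scores were 0.17 and 0.10 in ZBP1-KO and 0.06 and −0.34 in WT. Podocyte scores were 0.05 and 0.24 in ZBP1-KO and −0.15 and −0.14 in WT. Of the 9 podocyte markers, 5 had ZBP1-KO values above both WT values (again 16.0% of all tested genes). The edgeR test called 0 of the 9 (0.0134% of all tested genes). At an unadjusted p under 0.05, 1 was higher (1.91% of all tested genes). The collecting duct score was lower in ZBP1-KO (0.04 and −0.31) than in WT (0.18 and 0.08). In the remaining 8 of 13 marker lists the groups overlapped. Of all tested genes, taken singly, 32.3% had groups that did not overlap.

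Endothelial markers, which mark cells that make Igfbp3, Igfbp5 and Igfbp7, had scores of −0.17 and 0.17 in WT libraries against 0.02 and −0.02 in ZBP1-KO, and their median log2 fold change was −0.00. Library ZBP1-KO 1, the one with little Igfbp6, had the lowest scores for stroma (−0.48, against 0.08 to 0.26 in the other libraries) and proximal tubule (−0.35, against 0.03 to 0.19). It was also the lowest for liver (−0.52) and for smooth muscle and pericytes (−0.32). Slc5a2, the nearest to Igfbp6 in pattern, is among the proximal tubule markers. Others of that list, Slc22a7 (250 CPM) and Keg1 (283 CPM), had their highest level in ZBP1-KO 1. The part of any of these in the level of Igfbp6 was not tested. Liver and adrenal markers, which would accompany IGF genes from those organs, summed to between 28.8 and 48.3 CPM and between 5.47 and 10.1 CPM per library.

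**Figure D4:**
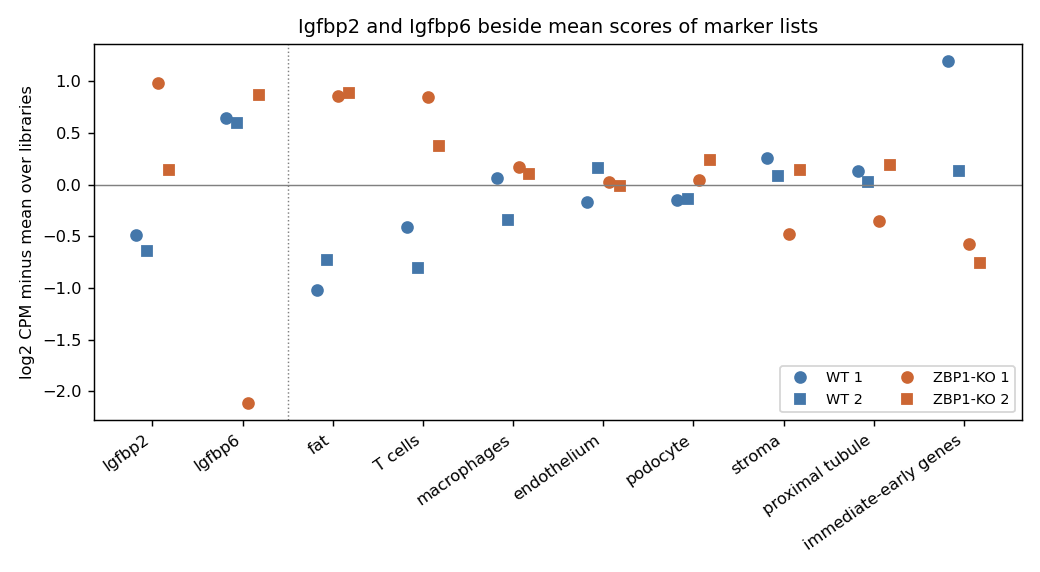
The y axis gives log2 CPM minus its mean over the 4 libraries, for Igfbp2 and Igfbp6 (left of the dotted line) and as the mean over tested markers of each list (right of it). Points are libraries. Fat, T cell, macrophage and podocyte scores separate the genotypes in the direction of Igfbp2, and the immediate-early score does so in the other direction. ZBP1-KO 1 is low for Igfbp6, stroma and proximal tubule.

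Other genes of the IGF pathway were then counted in the same fit. The list held 74 genes, none of them among the 9, and 68 were tested. The edgeR test called 0 higher and 0 lower, beside 0.0134% of all tested genes called in either direction. Before adjustment, 1 was higher and 3 were lower (p under 0.05), beside 1.91% and 1.97% of all tested genes. None of the other tools or settings called a gene of the list. The median log2 fold change was 0.01, beside −0.01 over all tested genes. The genotypes did not overlap for 21 of the 68, beside 32.3% of all tested genes. ZBP1-KO was above WT for 6 (16.0% of all tested genes) and below for 15 (16.3%). Of those above, Pappa2 passed the low-count filter through its ZBP1-KO counts alone (17 and 16, against 3 and 0 in WT).

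Among ligands and carriers, Igf2, the fetal ligand, was low, with 0.563 and 1.11 CPM in WT libraries against 2.06 and 1.72 CPM in ZBP1-KO (log2 fold change 1.17 ± 1.10, SE). Igfals, the subunit that joins Igfbp3 and IGF1 in a large blood complex, had 15.7 and 7.44 CPM in WT libraries against 16.1 and 7.54 CPM in ZBP1-KO. Ins2 was near its limit, at 0.431 to 1.69 CPM. Igfbpl1 had 0 counts in all 4 libraries, where 3 counts, the limit a count of 0 allows, correspond to 0.221 to 0.323 CPM (counting error only).

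Of the other receptors, 4 of 6 had ZBP1-KO values below both WT values (16.3% of all tested genes), and none passed the test. Igf2r, the receptor that clears IGF2, had 20.4 and 19.7 CPM in WT libraries against 13.6 and 17.7 CPM in ZBP1-KO (log2 fold change −0.36 ± 0.27, SE). Tmem219, described as a receptor for IGFBP3, had 18.3 and 10.6 CPM against 10.1 and 8.62 CPM (−0.62 ± 0.35). The insulin receptor Insr had 40.9 and 33.2 CPM against 45.6 and 36.7 CPM, and the groups overlapped. The growth hormone receptor Ghr had 182 and 125 CPM in WT libraries against 178 and 143 CPM in ZBP1-KO, and none of the 6 genes of the growth hormone axis separated the genotypes.

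Of the proteases that cleave binding proteins, Pappa had 10.4 and 10.3 CPM in WT libraries against 13.7 and 9.69 CPM in ZBP1-KO. Its relative Pappa2, which cleaves Igfbp3 and Igfbp5, had 3 and 0 counts in WT libraries against 17 and 16 counts in ZBP1-KO, and it did not pass the test (edgeR adjusted p = 0.999). Pappa2 passed the low-count filter through its ZBP1-KO counts alone. Its fitted fold change depends on the prior count and is not given.

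Downstream of the receptors no gene passed the test. Grb10, an adaptor that restrains insulin and IGF1 receptors, had 8.20 and 6.76 CPM in WT libraries against 13.0 and 13.1 CPM in ZBP1-KO (log2 fold change 0.80 ± 0.34, SE). Its relative Grb14 had 18.9 and 22.7 CPM in WT libraries against 13.1 and 11.5 CPM in ZBP1-KO (−0.75 ± 0.27). Rptor, the defining subunit of mTORC1, had 20.4 and 26.8 CPM against 15.6 and 13.4 CPM (−0.70 ± 0.27), and the adaptor Grb2 had 37.1 and 42.1 CPM against 30.2 and 23.4 CPM (−0.56 ± 0.22). These were the 4 genes past an unadjusted p of 0.05, and each had an adjusted p of 0.999 in edgeR. The RNA-binding protein Igf2bp2 had 5.07 and 6.84 CPM against 3.47 and 3.02 CPM (−0.87 ± 0.54). Hras, Pik3cd and Rheb, all in the signalling chain, had ZBP1-KO values above both WT values, with log2 fold changes of 0.32 ± 0.22, 0.20 ± 0.39 and 0.03 ± 0.20. The 13 genes of PI3K and AKT had log2 fold changes between −0.18 and 0.21.

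**Figure D5:**
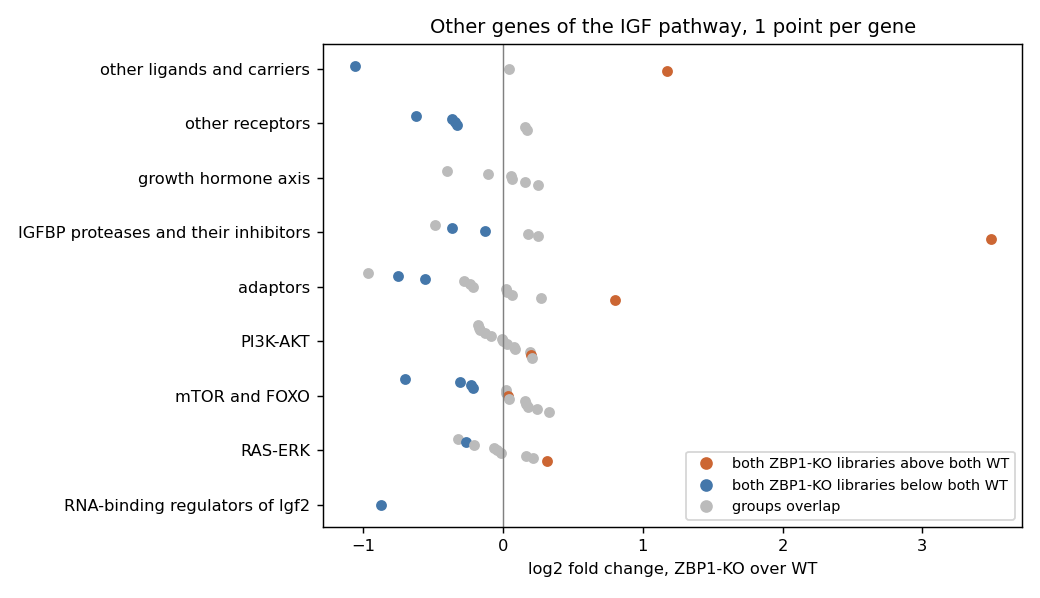
The x axis gives the log2 fold change of ZBP1-KO over WT for the 68 tested pathway genes, grouped on the y axis by role. Colour shows whether both ZBP1-KO libraries lay on 1 side of both WT libraries. Most points lie near 0. The far right point is Pappa2, which had 3 and 0 counts in WT and passed the low-count filter through ZBP1-KO alone.

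Proteins related to the binding proteins by the IGF-binding domain were also counted. The list held 14 genes, of which 11 were tested, but 1 of them, Igfn1, has no such domain. Without it, 10 of 13 were tested and 0 were called by edgeR in either direction (0.0134% of all tested genes). At an unadjusted p under 0.05, 1 was lower (1.97% of all tested genes). That gene was Ccn1, a matrix protein and immediate-early gene, with 48.4 and 39.4 CPM in WT libraries against 12.6 and 14.1 CPM in ZBP1-KO. Its log2 fold change was −1.72 ± 0.24 (SE) and its edgeR adjusted p was 0.0531, just short of the threshold. Of 15 tested immediate-early genes, 0 were called by edgeR (0.0134% of all tested genes). At an unadjusted p under 0.05, 11 of the 15 were lower (1.97% of all tested genes). Both ZBP1-KO values were below both WT values for 13 (16.3% of all tested genes), with scores of 1.19 and 0.13 in WT libraries against −0.57 and −0.75 in ZBP1-KO. Their part in the level of Ccn1 was not tested. Htra3, a secreted protease, had 5.07 and 5.39 CPM in WT libraries against 2.65 and 1.40 CPM in ZBP1-KO (−1.35 ± 0.64), and for Ccn3 the groups overlapped.

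Programmes known to drive Igfbp1 in other tissues held no called gene. Of 13 fasting and FOXO target genes, 0 were called by edgeR (0.0134% of all tested genes). At an unadjusted p under 0.05, 1 was higher (1.91% of all tested genes), and the median log2 fold change was −0.02. Pck1, the gluconeogenic enzyme, had 242 and 235 CPM in WT libraries against 231 and 275 CPM in ZBP1-KO. The list score was 0.18 and −0.11 in WT libraries against −0.24 and 0.17 in ZBP1-KO. Igfbp1 stood at 0.20 and −0.47 in WT libraries against −0.57 and 0.84 in ZBP1-KO. WT 1 and ZBP1-KO 2 were the highest for both, as also for the stroma, proximal tubule, liver, and smooth muscle and pericyte scores. The order is thus not particular to this list, and the part of these targets in the level of Igfbp1 was not tested. Of 15 hypoxia targets, 0 were called and 0 passed an unadjusted p under 0.05 in edgeR, with a median of −0.02. Their scores lay close to 0 in all libraries, at 0.01 and 0.02 in WT libraries against −0.02 and −0.01 in ZBP1-KO.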

How the data were processed

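Kidney RNA of WT and ZBP1-KO mice, 2 libraries per genotype, was sequenced after poly(A) enrichment (TruSeq kit with a strand-specific protocol, read pairs). The deposited values are raw counts per Ensembl gene, 1 file per library. The authors trimmed reads with Trimmomatic, aligned them to mm10 with HISAT2 and counted uniquely mapped pairs with featureCounts. Versions, annotation release and the strand setting of the counting were not given in the sources used here. Duplicate reads could not be removed by molecular identifiers, so depth limits cover counting error only.

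Of 54532 IDs, 54495 matched GENCODE M21, which gave symbols, positions and exon lengths (union of exons). Groups came from sample titles. The tool was edgeR 4.0.16 under R 4.3.3, run as a quasi-likelihood test on the counts after filterByExpr (minimum count 10, minimum total 15) and TMM scaling, genotype the only term, two-sided, with Benjamini-Hochberg adjustment over 14908 genes and a threshold of 0.05. A positive log2 fold change means more in ZBP1-KO (prior count 0.125). SE is the absolute log2 fold change over the square root of F. Log2 CPM for profiles and scores used a prior count of 2. The test was checked on simulated counts. Alternatives were other scalings, filters and tests (DESeq2 1.42.0, limma 3.58.1), a replicate block, leaving out mitochondrial genes and leaving out each library.

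The genes and lists were chosen with earlier results of these data known. Named beyond the 9 genes were Zbp1, fixed pathway genes, pathway genes with non-overlapping groups and the largest differences, up to 3 related proteins, nearest patterns and abundant markers. Igfbpl1 was singled out, and Igfn1 was left out of its list, after the values were seen. Some of the nearest patterns are not reported here.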

Additional observations from a re-analysis of the deposited data

How the results depend on the processing

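The number of genes called over all tested genes was 2. It was 41 with every gene of at least 1 count, where more genes were tested, 14 with the exact test of edgeR, 26 with the likelihood ratio test, 9 with DESeq2, 8 with limma-voom and 4 without mitochondrial genes. With 1 library left out it ran from 0 (without WT 1) to 37 (without ZBP1-KO 2), with 20 without WT 2 and 8 without ZBP1-KO 1, in fits where a lone library was assumed to vary like the others. Of the 9 genes, 0 were called, and 1 was called, in each case Igfbp2, with the exact test, the likelihood ratio test, DESeq2 and every gene of at least 1 count. With 1 library left out this count ran from 0 to 1, the call being made without ZBP1-KO 2. The adjusted p of Igfbp2 ran from 0.000127 to 1.00 over the 15 fits in edgeR, DESeq2 or limma-voom. The cause was not tested. Its log2 fold change stayed between 1.14 and 1.20 with 4 libraries. The count of pathway genes called was 0 in every fit.

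A fit with a replicate block called 11 genes and 0 of the 9. Libraries that share a number deviated from their group means almost independently (r = 0.00399 over genes), which is no hint of pairing, and nothing in the labels ties them. Igfbp4 had log2 fold changes of −0.0375 with the block, −0.0024 with every gene of at least 1 count and −0.0647 with limma-voom, against 0.01 in edgeR with all libraries. With 1 library left out, signs also changed for Igf1 (−0.0009 to 0.27), Igfbp1 (−0.54 to 1.00), Igfbp3 (−0.67 to 0.30), Igfbp4 (−0.43 to 0.34), Igfbp6 (−2.96 to 0.24) and the pathway median (−0.0843 to −0.0348). Per kilobase of the longest transcript, Igf1 stood at 4.80 and Igf1r at 3.92, which put Igf1 above Igfbp6 (4.73). The low counts of Igfbp1 and Igfbp6 limit what can be seen of either.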
